A study of Mus musculus with 14 samples.

Results

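Genes for the nuclear-encoded subunits of oxidative phosphorylation were followed through endoderm differentiation and Foxa2 induction in mouse embryonic stem cells (ESCs). They were found by symbol: Nduf followed by a, b, c, s or v and a number, Sdha to Sdhd, and all symbols that begin with Uqcr, Cox4 to Cox8 or Atp5. The rule took 84 of the 24054 genes of the RNA-seq tables, 37 for complex I, 4 for complex II, 8 for complex III, 18 for complex IV and 17 for complex V. It used no measured value. Symbols of 3 of them, Atp5s, Atp5sl and Cox7a2l, resemble those of subunits although their products are not counted among the subunits today, and they are described apart. The subunits encoded in mitochondrial DNA were not analysed here.

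Low-input RNA-seq was done on 14 libraries in 6 groups. In d0con and d3con cells (Foxa2-Venus-KO/+), a nuclear Venus reporter replaces the coding region of 1 Foxa2 allele. In d0ko and d3ko cells (Foxa2-Venus-KO/Foxa2-Venus-KO) it replaces both. The d0 groups (2 libraries each) were ESCs collected from red-fluorescent fibroblast feeders in medium without LIF and sorted as Cherry-negative. The d3 groups (3 libraries each) were sorted as Venus-positive after 3 days on feeders that secrete Wnt3a, with Activin A at 12 ng/ml where the labels give the dose. The d2-FVFn and d2-FVFp groups (2 libraries each) came from 1 other ESC line, in which a doxycycline-controlled lentiviral construct drives a Foxa2-Venus fusion in a background with a Sox17-Cherry reporter. These cells were grown without feeders, with LIF, received 40 ng/ml doxycycline for 48 h and were sorted as Venus-negative (n) or Venus-positive (p). Each genotype was represented by a pair of clones, and the deposited names place replicates 1 and 3 of day 3 in the same clone, so that the 3 day 3 libraries of a genotype are not 3 independent lines.

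Oxidative phosphorylation is the route by which the inner mitochondrial membrane turns the energy of NADH and succinate into ATP. Complexes I and II pass electrons to ubiquinone, complex III passes them on to cytochrome c, complex IV reduces oxygen, and complex V, the ATP synthase, uses the proton gradient that complexes I, III and IV build. Pluripotent stem cells are known to lean on glycolysis, and mitochondria are known to be remodelled when such cells differentiate. Several subunits exist as paired genes, 1 used in most cells and 1 restricted to certain tissues or to low oxygen, so that the composition of a complex can change while its total does not.

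Library totals ranged from 14142788 to 27278237 expected counts, which are RSEM's estimates of the reads of each gene. Foxa2 itself was at 58.6, 34.8 and 54.5 TPM (a transcript level scaled for gene length and library total) in d3con, at 0.11, 0.15 and 0.19 TPM in d3ko, at 2.99 and 2.01 TPM in d2-FVFn and at 169 and 160 TPM in d2-FVFp, in the order its labels require. The d3ko libraries did not form a uniform group. The TPM of 6 pluripotency markers summed to 15431, 2668 and 17364 in replicates 1, 2 and 3 of d3ko, against 562 to 985 in d3con and 13787 to 15663 at day 0. Replicate 2 therefore stood apart, and it was the d3ko library of the other clone. Summed TPM of 6 mesoderm markers was 20.6, 169 and 36.3 in replicates 1, 2 and 3 of d3con, 29.1, 309 and 67.6 in those of d3ko and at most 4.07 among day 0 libraries. Replicate 2 of d3con also differed from its group in single markers, with T at 131 TPM (11.4 and 15.5 in replicates 1 and 3), Nanog at 246 TPM (40.2 and 42.5) and Dkk1 at 44.5 TPM (385 and 313). It held the highest d3con value of Ndufa4l2 and the lowest of Ndufb4, and the part of these marker differences in its values was not tested. Summed TPM of 6 endoderm markers was 760 to 1278 in d3con, 29.0 to 141 in d3ko and 5.14 to 6.87 at day 0. For 10 fibroblast markers the summed TPM ranged between 15.4 and 155 among day 0 libraries, between 56.0 and 369 among day 3 libraries and between 4.69 and 30.6 among doxycycline libraries, and Col1a1 reached 180 TPM in d3con and 260 TPM in d3ko. The part of feeder RNA in the day 3 results was not tested. The read length was 75 bases in replicate 1 of both day 3 groups and 50 bases in the other libraries.

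The subunit genes were among the most abundant transcripts of these cells. A median tested member had a mean of 351 TPM over the 14 libraries, a level that 96.3% of tested genes did not exceed, and the median of all tested genes was 14.2 TPM. Of the 84 members, 73 had a mean of at least 100 TPM. The 4 with a mean under 5 TPM were Cox6a2, Cox7b2, Cox8b and Cox8c, tissue isoforms of complex IV, and these were also the members left out of the tests for low counts, so that 80 members were tested. They are short: the median effective length was 630 bases against 2735 bases for all tested genes. In at least one 50-base library, 79 members had a fractional count, which means that RSEM shared some of their reads with other loci, whereas in the 75-base libraries 9 members did. How far pseudogenes and paralogs add to the level of a member was not tested, and levels of paired isoforms carry that uncertainty.

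Each complex had its own level. The highest means were 2426 TPM for Atp5b, the catalytic beta subunit of the ATP synthase, and 1276 TPM for Atp5g3 in complex V, and 1905 TPM for Cox4i1 and 1114 TPM for Cox7c in complex IV. In complex III they were 633 TPM for Uqcr10 and 573 TPM for Uqcrb, and in complex I 905 TPM for Ndufa4 and 790 TPM for Ndufa7. Ndufa4 is now assigned to complex IV, although its symbol places it in complex I. Succinate dehydrogenase, complex II, had the lowest ceiling, with 389 TPM for Sdhd and 336 TPM for Sdhb, both membrane or iron-sulphur components of the enzyme. At the other end, leaving aside the tissue isoforms and Atp5s, Ndufs5, a small accessory subunit of complex I, had 19.2 TPM.

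Summed over all 84 genes, TPM stayed in a narrow range from day 0 to day 3. The sum was 37593 ± 344 (SD, n = 2) in d0con, 37040 ± 1131 (SD, n = 2) in d0ko, 37845 ± 1779 (SD, n = 3) in d3con and 38741 ± 1094 (SD, n = 3) in d3ko. The doxycycline groups had lower sums, 31429 ± 200 (SD, n = 2) for d2-FVFn and 33276 ± 1450 (SD, n = 2) for d2-FVFp. The highest sums were those of the 75-base libraries, 39892 and 39873, so read length moved with the total. Members took 1.436% to 1.789% of all counts in a library.

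Below that level total, the complexes went different ways on the TPM scale. Complex I summed to 10859 and 10613 TPM in d0con and to 13526, 12083 and 12337 TPM in d3con, and to 10835 and 10407 TPM in d0ko against 12959, 12639 and 11496 TPM in d3ko. Every day 3 library lay above every day 0 library. Complex V summed to 12831 and 12880 TPM in d0con and to 11783, 11523 and 11592 TPM in d3con, all lower, while the d3ko sums of 11701, 12483 and 11997 TPM overlapped those of d0ko (12953 and 12213 TPM). Complex II was higher in every day 3 library too, at 1157 and 1126 TPM in d0con and 1184, 1371 and 1384 TPM in d3con, and at 1109 and 1102 TPM in d0ko and 1243, 1478 and 1367 TPM in d3ko. Complexes III and IV overlapped between the days in both genotypes. Because 1 TPM library total is shared by all genes, a sum can move when other genes move. From d0con to d3con the median change in log2(TPM + 1) was 0.16 for complex I and 0.11 for complex II, against 0.21 for all genes. From d0ko to d3ko it was 0.14 and 0.29, against 0.16 for all genes. The median of complex V was -0.10 in d3con and -0.07 in d3ko, and on TPM 2 of its 17 genes were called lower and 2 higher in d3con. Its sum in d3con leaned on a few abundant genes. From d0con to d3con, mean TPM went from 2612 to 2076 for Atp5b and from 983 to 508 for Atp5g1, but from 766 to 1027 for Atp5g2. On counts the median log2 fold change of complex I was -0.05 in d3con and -0.04 in d3ko. The higher sums of complex I thus did not set its typical gene above all genes.

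**Figure D1:**
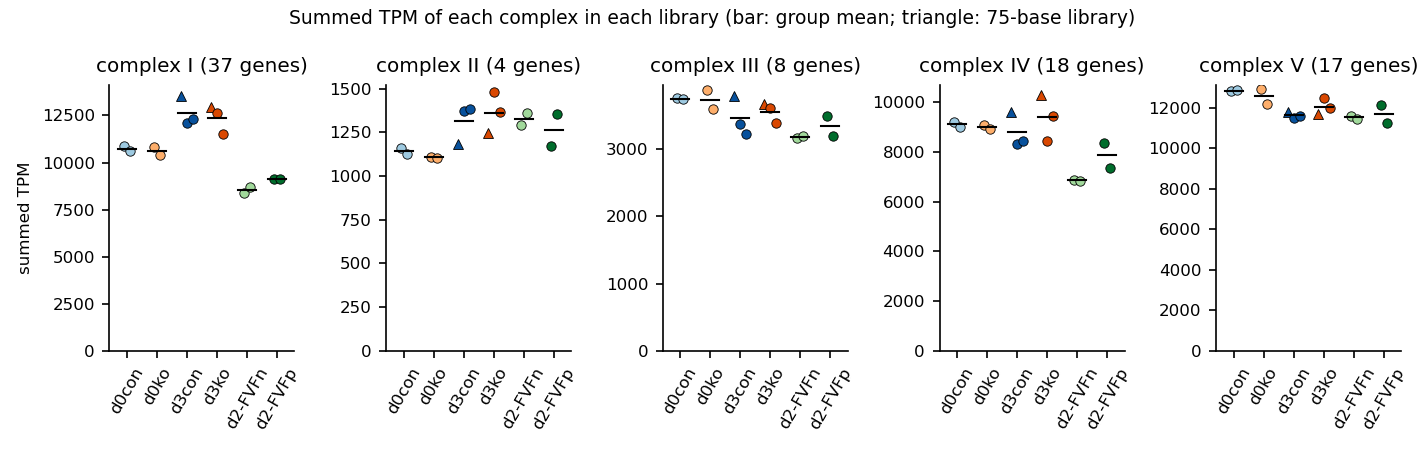
Summed TPM (vertical axis, from 0) of the genes of each complex in each of the 14 libraries, by group; horizontal bars are group means and triangles mark the 75-base libraries. Complex I lay higher at day 3 (11496 to 13526 TPM) than at day 0 (10407 to 10859 TPM) in both genotypes, and complex V lay lower in d3con (11523 to 11783 TPM) than in d0con (12831 and 12880 TPM). The median change of complex I genes in log2(TPM + 1) was 0.16 in d3con and 0.14 in d3ko, below the 0.21 and 0.16 of all genes.

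The comparison of d3con with d0con asks how the subunit genes differ between control ESCs and Venus-positive cells sorted during endoderm differentiation. Tested on counts with edgeR, 9 of the 80 tested members rose, while 27% of all tested genes did, and 18 fell, while 25.2% of all tested genes did. Past a 2-fold change there were 7 members, 8.75% of those tested, against 35.2% of all tested genes. Called here means an adjusted p under 0.05 over all tested genes. The median log2 fold change of the members was -0.18, against 0.07 for all genes, and the median size of a member's change was 0.307 on the log2 scale against 0.802. The typical change of a member was smaller than that of all genes. With bulk RNA, fewer cells of a type and less RNA per cell cannot be told apart.

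The direction of the small changes depended on the scale. On log2(TPM + 1) with limma the median of all genes was 0.14 higher than on the count scale, and the members' median was 0.03. Relative to the median of all genes, the members' median was -0.25 on the count scale and -0.17 on the TPM scale. On the TPM scale 18 members were called higher, while 30.5% of all genes were, and 6 lower, while 18.2% were. All 9 members that rose on counts were also called higher on TPM, whereas 6 of the 18 that fell were also called lower. These 6 were Ndufs1, Ndufa10, Ndufa11, Uqcrc1, Atp5g1 and Atp5sl. The other 12 falls, of 0.34 to 0.67 on the log2 scale, were not called on TPM.

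**Figure D2:**
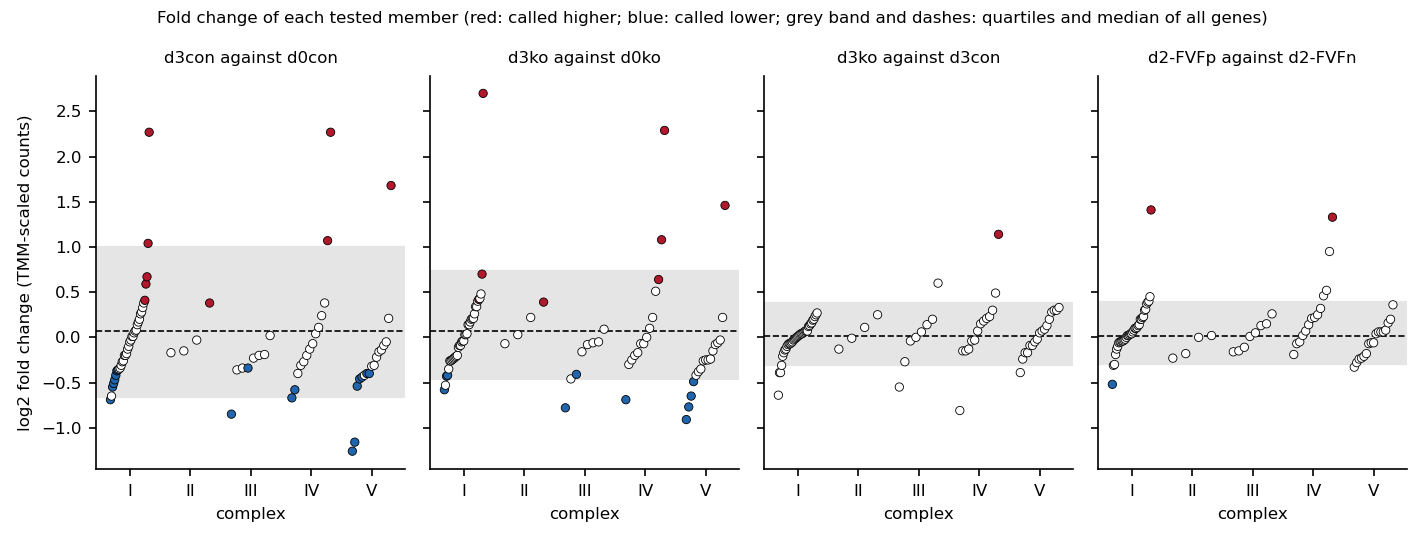
Log2 fold change (TMM-scaled counts, vertical axis) of each of the 80 tested members, ordered by size within its complex, in 4 comparisons; red points were called higher and blue points lower, the grey band spans the quartiles of all tested genes and the dashed line is their median. In d3con against d0con Cox4i2, Ndufa4l2, Atp5s, Cox7a1 and Ndufb4 lay above the band, and Atp5sl, Atp5g1, Uqcrc1, Ndufs1 and Cox4i1 lay below it.

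Of the 7 members past 2-fold, 3 were tissue isoforms (Cox4i2, Ndufa4l2 and Cox7a1), 2 were common subunits (Ndufb4 and Atp5g1) and 2 were Atp5s and Atp5sl, which are not counted as subunits. The tested members held 4 tissue isoforms and 73 common subunits. Cox4i2, the isoform of subunit 4 of cytochrome c oxidase known for its use in lung and at low oxygen, was at 1.26 and 2.96 TPM in d0con and at 9.48, 16.6 and 9.63 TPM in d3con. The groups did not overlap, although the level rested on 10 and 21 counts at day 0 and on 75, 121 and 83 at day 3. Its log2 fold change was 2.27 ± 0.55 (SE, adjusted p = 0.00789), and without d0con replicate 1 it was 1.78 (adjusted p = 0.0732). Its common partner Cox4i1 was at 2441 and 2358 TPM in d0con and at 1923, 1594 and 1724 TPM in d3con, and fell by 0.67 on the log2 scale (SE 0.20, adjusted p = 0.0195). Without either d0con library, or without d3con replicate 2 or 3, the adjusted p for Cox4i1 was 0.0554 to 0.0932, and on the TPM scale 0.0792. Cox4i2 thus made up 0.0516% and 0.125% of the TPM of the pair in d0con and 0.491% to 1.03% in d3con, so the common isoform stayed in large excess.

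Ndufa4l2, a paralog of Ndufa4 that is known as a target of the hypoxia response, behaved in the same way. It was at 32.6 and 22.8 TPM in d0con and at 80.6, 262 and 127 TPM in d3con, without overlap and with a wide spread at day 3. Its log2 fold change was 2.27 ± 0.53 (SE, adjusted p = 0.00695), or 2.04 (adjusted p = 0.0629) without d0con replicate 2. Ndufa4 itself was at 933 and 923 TPM in d0con and at 1061, 943 and 972 TPM in d3con, with a log2 fold change of -0.13 (adjusted p = 0.522). The share of Ndufa4l2 in the TPM of the pair went from 3.38% and 2.41% in d0con to 7.06%, 21.7% and 11.5% in d3con.

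Cox7a1, the heart and muscle isoform of subunit 7a, was at 28.4 and 24.8 TPM in d0con and at 85.1, 45.6 and 66.2 TPM in d3con. It rose by 1.07 ± 0.35 on the log2 scale (SE, adjusted p = 0.0283). This call was lost without d0con replicate 1 or 2 (adjusted p = 0.103 and 0.152) and without d3con replicate 1 or 3 (0.0767 and 0.0568). Its common partner Cox7a2 was at 420 and 414 TPM in d0con and at 440, 513 and 429 TPM in d3con (log2 fold change -0.07, adjusted p = 0.766). Cox6b2, the testis-type isoform of subunit 6b, was already present at day 0, with 62.3 and 71.6 TPM, and d3con had 81.4, 137 and 86.5 TPM, a log2 fold change of 0.38 that was not called (adjusted p = 0.362). The 4 tissue isoforms left out of the tests stayed near 0. Cox8b was listed at 0 in all libraries but d3ko replicate 3 (0.21 TPM), and Cox8c did not exceed 0.93 TPM. Cox7b2 did not exceed 6.46 TPM, and Cox6a2 did not exceed 1.08 TPM outside d3ko replicate 1, where it had 9.89 TPM.

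**Figure D3:**
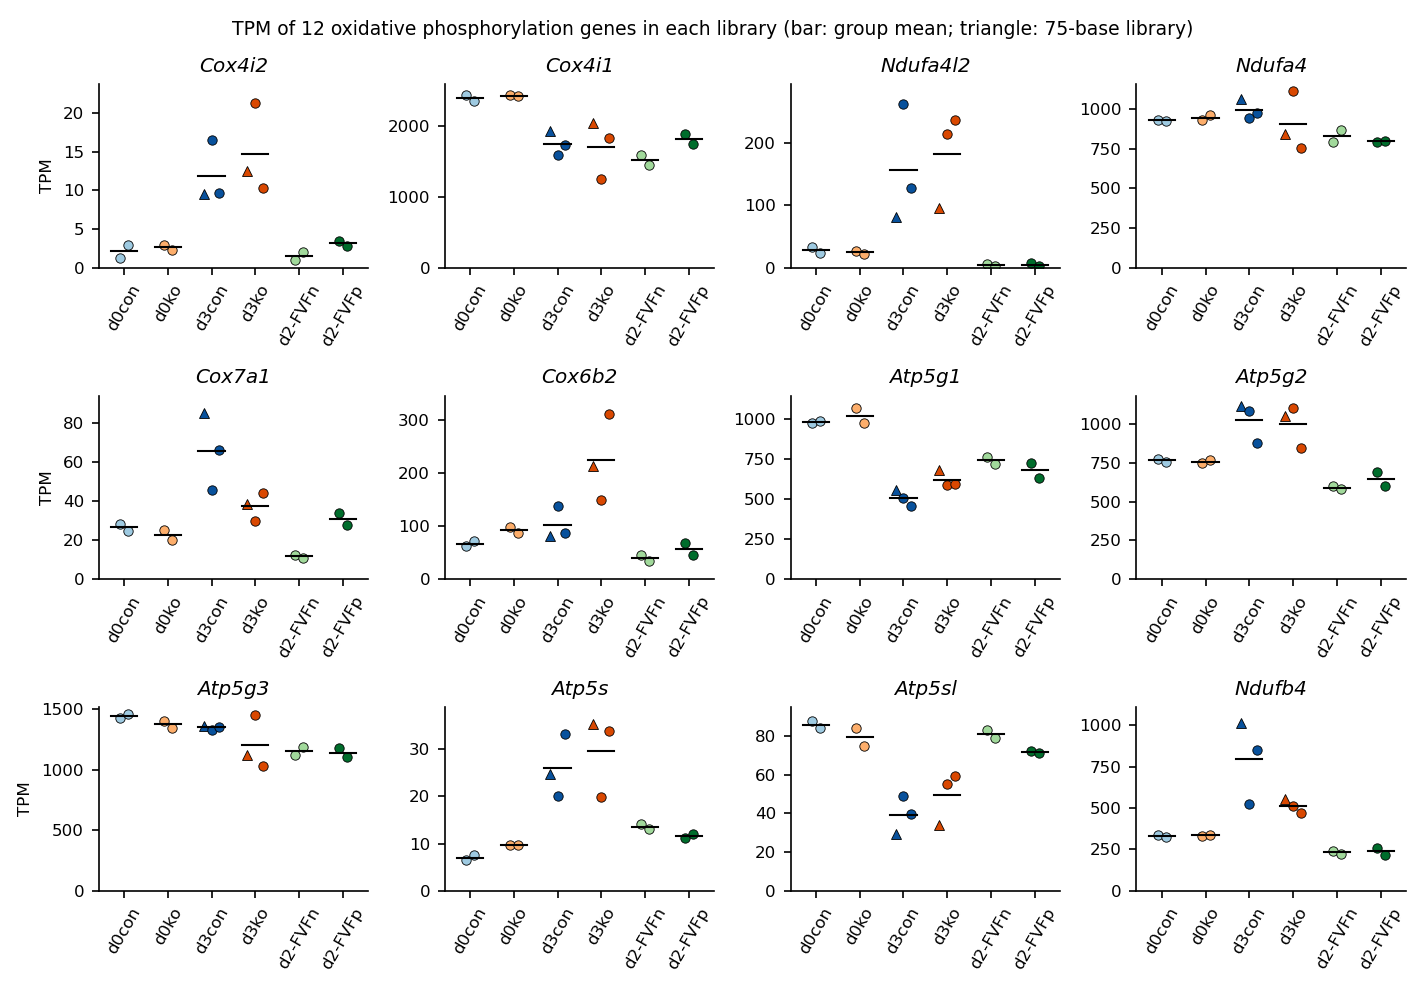
TPM (vertical axis, from 0, scaled per gene) of 12 members in each of the 14 libraries by group, with bars for group means and triangles for the 75-base libraries. Cox4i2, Ndufa4l2 and Atp5s were higher in every day 3 library than in every day 0 library, and Atp5g1 and Atp5sl were lower.

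Within complex I, 5 of 37 members rose and 7 fell in d3con, shares of 13.5% and 18.9% that were below those of all genes. Ndufb4, an accessory subunit of the membrane arm, was at 334 and 326 TPM in d0con and at 1012, 522 and 852 TPM in d3con (log2 fold change 1.04 ± 0.25, adjusted p = 0.00715; 0.0524 without d0con replicate 2). Ndufa6, an accessory subunit near the hinge of the complex, was at 212 and 214 TPM in d0con and at 413, 378 and 391 TPM in d3con (0.67 ± 0.12, adjusted p = 0.00227). These were tight groups, and the Ndufa6 call held in each of the 13 alternatives tried. In the other direction, Ndufs1, the largest core subunit, which carries iron-sulphur clusters, was at 158 and 154 TPM in d0con and at 90.7, 117 and 127 TPM in d3con, a fall of 0.69 on the log2 scale (SE 0.12, adjusted p = 0.00202) that also held in all 13. Gains and losses in one complex thus stood side by side. The other members that rose were Ndufb3, Ndufv3 and Ndufa4l2, and the others that fell were Ndufa10, Ndufa11, Ndufb2, Ndufb10, Ndufs8 and Ndufv1. Ndufa4l2 and its paralog Ndufa4 are counted in complex I by symbol only.

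Complex II, which also serves the tricarboxylic acid cycle, changed in 1 of its 4 genes. Sdhc, a membrane anchor, was at 221 and 193 TPM in d0con and at 286, 334 and 316 TPM in d3con (log2 fold change 0.38 ± 0.13, adjusted p = 0.0346). Blocking on the replicate number gave an adjusted p of 0.0616, and without d0con replicate 1 or 2 or d3con replicate 2 or 3 it was 0.0564 to 0.234. Sdha, the flavoprotein, had a log2 fold change of -0.17 (adjusted p = 0.253), Sdhb, the iron-sulphur subunit, -0.15 (0.264) and Sdhd, the other anchor, -0.03 (0.878).

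In complex III, 2 of 8 members fell, 25% of them and near the share of all genes. Uqcrc1, a core subunit that faces the matrix, was at 554 and 504 TPM in d0con and at 293, 354 and 371 TPM in d3con, a fall of 0.85 on the log2 scale (SE 0.23, adjusted p = 0.0137). Without d0con replicate 1 or 2 its adjusted p was 0.081 and 0.0509, and with both 75-base libraries left out 0.0536. Uqcrb, a ubiquinone-binding subunit, fell by 0.34 (SE 0.10, adjusted p = 0.0231), from 659 and 640 TPM to 616, 598 and 590 TPM, and was not called on the TPM scale (adjusted p = 0.351). The most abundant member, Uqcr10, was at 622 and 695 TPM in d0con and at 682, 607 and 546 TPM in d3con, with a log2 fold change of -0.34 (adjusted p = 0.0974).

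Among the common subunits of complex IV, Cox4i1 and Cox5a fell and none rose. Cox5a was at 749 and 783 TPM in d0con and at 606, 572 and 604 TPM in d3con, a fall of 0.58 on the log2 scale (SE 0.22, adjusted p = 0.047). Its call was lost when any one of the 5 libraries was left out (adjusted p = 0.083 to 0.173) and on the TPM scale (0.18). Its neighbour in the complex, Cox5b, was at 533 and 503 TPM in d0con and at 619, 506 and 531 TPM in d3con, overlapping (log2 fold change -0.13, adjusted p = 0.505). Cox7c, Cox6a1, Cox6b1 and Cox7b were not called either, with log2 fold changes of -0.31, -0.20, 0.04 and 0.11. Cox8a went from 698 and 666 TPM to 995, 925 and 908 TPM (log2 fold change 0.24, adjusted p = 0.107), which was called on the TPM scale (0.47, adjusted p = 0.00635).

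In complex V 7 of 17 members fell and 1 rose on counts, a share of falls of 41.2% that includes Atp5sl, against 25.2% of all genes. On the TPM scale 2 were called lower and 2 higher. Atp5g1 is one of 3 genes, with Atp5g2 and Atp5g3, that encode the same mature c subunit of the membrane rotor. It was at 976 and 990 TPM in d0con and at 559, 507 and 459 TPM in d3con, and fell by 1.16 on the log2 scale (SE 0.14, adjusted p = 0.000428), in all 13 alternatives. Atp5g2 was at 777 and 756 TPM in d0con and at 1118, 1087 and 876 TPM in d3con, with a log2 fold change of 0.21 that was not called on counts (adjusted p = 0.305) and was on TPM (0.41, adjusted p = 0.0482). Atp5g3 was at 1429 and 1461 TPM in d0con and at 1360, 1327 and 1355 TPM in d3con (-0.32, adjusted p = 0.0928). Atp5g1 supplied 30.7% and 30.9% of the TPM of the 3 genes in d0con and 18.4%, 17.4% and 17.1% in d3con. The mixture of genes behind the c subunit thus shifted without overlap between groups. Atp5b fell by 0.54 on the log2 scale (SE 0.17, adjusted p = 0.0255), from 2640 and 2585 TPM to 1821, 2019 and 2388 TPM, and was not called on the TPM scale (adjusted p = 0.152) or without any one of d0con replicates 1 and 2 and d3con replicates 1 and 2 (0.064 to 0.112). The further falls, of Atp5f1, Atp5j2, Atp5l and Atp5o, were of 0.40 to 0.46 and were not called on TPM.

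The 2 genes whose symbols carry Atp5 but whose products are not counted as ATP synthase subunits moved most in that group. Atp5s (Dmac2l in current naming) was at 6.45 and 7.59 TPM in d0con and at 24.7, 20.1 and 33.2 TPM in d3con (log2 fold change 1.68 ± 0.32, adjusted p = 0.00271). Atp5sl (Dmac2), whose product is known to take part in the assembly of complex I, was at 87.7 and 84.0 TPM in d0con and at 29.1, 49.1 and 39.8 TPM in d3con, a fall of 1.26 (SE 0.25, adjusted p = 0.00311). Both calls held in all 13 alternatives, and they went in opposite directions. Cox7a2l, a factor of respiratory supercomplexes, was at 176 and 161 TPM in d0con and at 171, 161 and 154 TPM in d3con, and was not called (log2 fold change -0.27, adjusted p = 0.125).

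The counts of called members leaned on the small groups. Without d0con replicate 1, 4 members were called higher and 3 lower, and without d0con replicate 2, 3 and 5. Without d3con replicate 2 or 3, 7 members were called higher and 10 lower in both cases. Over all genes the number called also dropped, from 3748 higher and 3498 lower to 2072 and 2213 without d0con replicate 1. A fit with 1 library in a group assumes that this library varies as the other groups do.

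The comparison of d3ko with d0ko, which shares no library with the one above, follows the same days in cells without Foxa2. Here 8 members rose, while 15.9% of all tested genes did, 10 fell, while 14.1% of all did, and 4 passed 2-fold, against 17.3% of all. The members' median log2 fold change was -0.07 (0.07 for all genes), and on the TPM scale 0.08, with 16 members called higher and 3 lower, against 17.7% and 10.1% of all genes. All 8 that rose were also called higher on TPM, and 3 of the 10 that fell, Ndufa11, Atp5g1 and Atp5j2, were also called lower.

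The largest rises were those of Ndufa4l2, Cox4i2 and Atp5s. Ndufa4l2 was at 27.2 and 22.2 TPM in d0ko and at 95.1, 214 and 237 TPM in d3ko (log2 fold change 2.70 ± 0.54, adjusted p = 0.00776). Cox4i2 was at 2.96 and 2.28 TPM in d0ko and at 12.5, 21.3 and 10.3 TPM in d3ko (2.29 ± 0.54, adjusted p = 0.0137). Atp5s was at 9.60 TPM in both d0ko libraries and at 35.4, 19.9 and 33.9 TPM in d3ko (1.46 ± 0.32, adjusted p = 0.01). In each of the 3 genes the d3ko libraries lay above both d0ko libraries. Cox6b2 joined them, with 98.3 and 86.5 TPM in d0ko and 214, 149 and 312 TPM in d3ko (1.08 ± 0.34, adjusted p = 0.0392, or 0.0961 with the replicate block). Cox7a1, with 25.4 and 20.3 TPM in d0ko and 38.5, 29.7 and 44.3 TPM in d3ko, was not called (0.51, adjusted p = 0.277).

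Cox8a, the common isoform of the smallest complex IV subunit, rose from 624 and 615 TPM in d0ko to 1137, 1033 and 1125 TPM in d3ko (log2 fold change 0.64 ± 0.12, adjusted p = 0.00568). Ndufa6 rose from 201 and 205 TPM to 381, 352 and 395 TPM (0.70 ± 0.12, adjusted p = 0.00439). Ndufv3 and Sdhc rose by 0.42 and 0.39 (adjusted p = 0.0432 and 0.0465), and Sdhc was at 0.079 with the replicate block. The other Sdh genes were not called (log2 fold changes of 0.03, 0.22 and -0.07 for Sdha, Sdhb and Sdhd).

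Among the falls, Atp5g1 went from 1072 and 975 TPM in d0ko to 680, 588 and 594 TPM in d3ko (a fall of 0.91 on the log2 scale, SE 0.14, adjusted p = 0.00313), and its share of the c subunit transcripts from 33.3% and 31.6% to 23.8%, 18.7% and 24.0%. Uqcrh, the hinge protein of complex III, was at 385 and 390 TPM in d0ko and at 219, 369 and 188 TPM in d3ko (a fall of 0.78, SE 0.25, adjusted p = 0.0414). Replicates 1 and 3 of d3ko were low and replicate 2 was close to day 0, and the call was lost with the replicate block (adjusted p = 0.0574), without d3ko replicate 1 or 3 (0.106 and 0.0757) and on TPM (0.0709). Atp5sl went from 84.0 and 74.6 TPM to 34.1, 55.1 and 59.4 TPM (a fall of 0.77, SE 0.25, adjusted p = 0.0428; 0.08 without d3ko replicate 1, 0.0729 on TPM). Cox4i1 went from 2431 and 2424 TPM to 2047, 1247 and 1824 TPM (a fall of 0.69, SE 0.20, adjusted p = 0.0296; 0.0702 on TPM).

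Without d0ko replicate 1 no member rose and 1 fell, and without d0ko replicate 2, 1 rose and 1 fell. Atp5g1 was the fall in both cases. All-gene calls went from 2213 higher and 1956 lower to 363 and 496 without d0ko replicate 1. Without d3ko replicate 2, the library that stood apart, 8 members rose and 16 fell, against 16.7% and 15.1% of all genes, and without d3ko replicate 1, 6 rose and 5 fell.

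**Figure D4:**
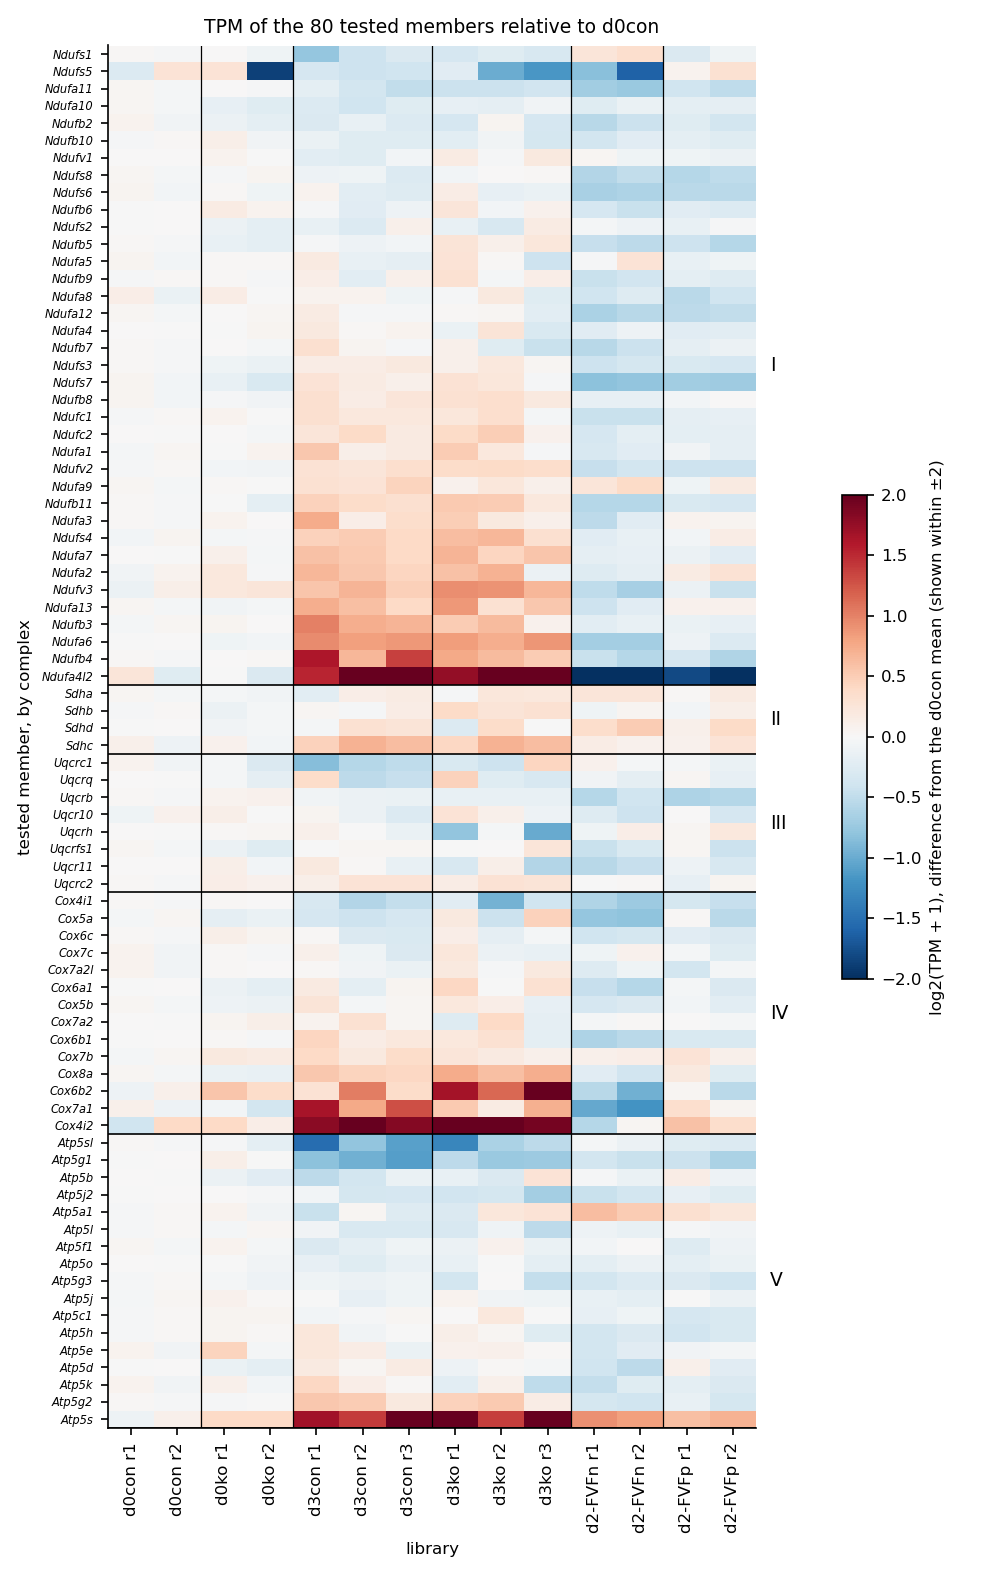
Each row is 1 of the 80 tested members, grouped by complex and ordered by its mean in d3con, each column 1 library, and the colour gives log2(TPM + 1) minus the mean of d0con, shown within 2 units on either side. The strongest colours at day 3 fell on Ndufa4l2, Cox4i2, Cox7a1, Cox6b2, Atp5s, Ndufb4, Atp5sl and Atp5g1, and Ndufs5 was low in d0ko replicate 2 and d2-FVFn replicate 2.

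Between genotypes the day 0 to day 3 changes were compared with the interaction term. Of the members, 6 were called higher over the days in both genotypes, 3 in control cells alone and 2 in ko cells alone, and 9 were called lower in both, 9 in control cells alone and 1 in ko cells alone. Of all tested genes, 14.2% were called higher in both, 12.8% in control cells alone and 1.73% in ko cells alone, and 12.2%, 12.9% and 1.83% were called lower in the same order. A call in one genotype alone does not show a difference: with edgeR the interaction was called for no member and for 0% of all tested genes. At an unadjusted p under 0.05 there were 5 of the 80 tested members, against 1840 of the 13899 tested genes, which is a larger share. The 5 were Cox8a, Ndufa10, Ndufb5, Sdhb and Uqcrc1, all with a more positive change in ko cells. The lowest adjusted p among members was 0.285, for Ndufb5. DESeq2 called no member either, although it called 313 and 276 of all genes. The largest terms were 0.79 ± 0.33 for Uqcrc1 (adjusted p = 0.349), 0.70 ± 0.46 for Cox6b2 (0.557) and 0.69 ± 0.31 for Cox5a (0.385), and in the other direction -0.62 ± 0.34 for Ndufb4 (0.476), -0.55 ± 0.48 for Cox7a1 (0.662) and -0.54 ± 0.35 for Uqcrh (0.552), on the log2 scale with SE. Without d3ko replicate 2 the interaction was called for Cox5a (0.90 ± 0.17, adjusted p = 0.016) and in the other direction for Uqcrh (-0.89 ± 0.19, 0.0251), while 5.48% and 3.69% of all genes were called.

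The direct comparison of d3ko with d3con shares its libraries with both comparisons of days. It asks which subunit genes differ in Venus-positive cells that lack Foxa2. In edgeR 1 member was higher, while 5.66% of all tested genes were, and none was lower, while 4.89% were. Past 2-fold it was the same member, against 8.26% of all tested genes. At an unadjusted p under 0.05 there were 10 of the 80 tested members, against 3878 of the 13899 tested genes, which is a larger share. DESeq2 called 1 member higher and 1 lower, while it called 10.3% and 8.09% of all tested genes. The members' median log2 fold change was 0.02, as for all genes, and the median size of a change was 0.133 against 0.339.

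The called member was Cox6b2, at 81.4, 137 and 86.5 TPM in d3con and at 214, 149 and 312 TPM in d3ko, a difference of 1.14 ± 0.30 on the log2 scale (SE, adjusted p = 0.0401). All d3ko libraries were higher than all d3con libraries, replicate 2 of each group being the closest pair. Cox6b2 made up 17.2%, 11.8% and 28.6% of the TPM of the Cox6b pair in d3ko and 6.34%, 12.1% and 7.76% in d3con, and these shares overlapped. The call was lost without d3con replicate 1 (adjusted p = 0.147) or 3 (0.15), without d3ko replicate 1 (0.0843) or 3 (0.12), with both 75-base libraries left out (0.243), when only the 2 groups were fitted (0.111) and with the replicate block (0.0774). Fewer of all tested genes were called higher in these fits too, 0% to 3.46% against 5.66% in the main fit. Cox6b1, the common isoform, was at 1203, 992 and 1029 TPM in d3con and at 1030, 1107 and 780 TPM in d3ko (log2 fold change -0.15, adjusted p = 0.54).

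Members next in size did not pass. Uqcrc1 was at 293, 354 and 371 TPM in d3con and at 428, 397 and 711 TPM in d3ko (0.60 ± 0.21, adjusted p = 0.105), without overlap. Cox5a was at 606, 572 and 604 TPM in d3con and at 878, 571 and 1053 TPM in d3ko (0.49 ± 0.20, adjusted p = 0.143). Here replicate 2 of d3ko fell among the d3con libraries. Ndufb4 was at 557, 514 and 469 TPM in d3ko, against 1012, 522 and 852 TPM in d3con (-0.64 ± 0.21, adjusted p = 0.0884), and Cox7a1 at 38.5, 29.7 and 44.3 TPM, against 85.1, 45.6 and 66.2 TPM (-0.81 ± 0.30, adjusted p = 0.116). For Ndufb4 the groups overlapped at d3con replicate 2, and for Cox7a1 all d3ko libraries lay below all d3con libraries. Uqcrh was at 219, 369 and 188 TPM in d3ko against 405, 376 and 343 TPM in d3con (-0.55 ± 0.22, adjusted p = 0.15).

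Leaving out d3ko replicate 2 changed this picture. In the remaining libraries 4 members were higher and 5 lower, against 14.6% and 12.8% of all tested genes, so the call rate rose for all genes as well. Higher were Cox6b2 (log2 fold change 1.37 ± 0.26, adjusted p = 0.00605), Uqcrc1 (0.76 ± 0.19, 0.0217), Cox5a (0.70 ± 0.11, 0.00319) and Ndufv1 (0.35 ± 0.10, 0.0322). Lower were Uqcrh (-0.89 ± 0.13, 0.00208), Atp5k (-0.57 ± 0.16, 0.0281), Uqcr11 (-0.49 ± 0.15, 0.0419), Cox7a2 (-0.36 ± 0.11, 0.0459) and Atp5g3 (-0.32 ± 0.10, 0.0427). Both d3ko libraries behind these values came from 1 clone, so clone and genotype cannot be told apart in them.

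At day 0 the genotypes were compared before differentiation. With edgeR no member differed between d0ko and d0con, nor did any gene (0% of those tested). No member had an unadjusted p under 0.05, while 195 of the 13899 tested genes did, and DESeq2 called no member. The largest differences were 0.44 ± 0.36 for Cox6b2, 0.41 ± 0.34 for Atp5s, 0.18 ± 0.19 for Atp5e, a subunit of the central stalk, and in the other direction -0.50 ± 0.65 for Ndufs5, -0.27 ± 0.16 for Ndufs7, a core subunit near the ubiquinone site, and -0.26 ± 0.37 for Cox7a1 (log2 fold change with SE, each with an adjusted p of 1.0). Cox6b2 was at 98.3 and 86.5 TPM in d0ko and at 62.3 and 71.6 TPM in d0con. These libraries did not overlap, in the order also seen at day 3, and the difference was not called. Such separation was not limited to Cox6b2: in TPM 11 members were higher and 22 lower in both d0ko libraries than in both d0con libraries. The share of all genes separated in this way was not counted, so no genotype trend is read from these numbers.

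Induction of Foxa2 in stem cells was read from d2-FVFp against d2-FVFn, 4 libraries of 1 line. Here 2 members rose, while 9.96% of all tested genes did, 1 fell, while 6.57% did, and 2 were past 2-fold, against 8.43%. With the replicate block 9 rose and 3 fell, while 20.3% and 16.4% of all genes did. The members' median log2 fold change was 0.04 (0.01 for all genes). Cox7a1 was at 12.6 and 11.0 TPM in d2-FVFn and at 33.8 and 27.6 TPM in d2-FVFp (log2 fold change 1.33 ± 0.34, adjusted p = 0.0393). Ndufs5 was at 13.7 and 7.55 TPM in d2-FVFn and at 26.4 and 31.4 TPM in d2-FVFp (1.41 ± 0.37, adjusted p = 0.041). Ndufs5 ranged from 6.19 to 30.6 TPM in the day 0 libraries with no difference called, so its replicates were unsteady elsewhere. Ndufs1 was at 185 and 197 TPM in d2-FVFn and at 128 and 147 TPM in d2-FVFp, a fall of 0.52 on the log2 scale (SE 0.12, adjusted p = 0.0298).

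All 3 calls were lost without d2-FVFn replicate 1 (adjusted p = 0.131 for Cox7a1, 0.0571 for Ndufs5 and 0.148 for Ndufs1), without d2-FVFn replicate 2 (0.17, 0.185 and 0.2) and without d2-FVFp replicate 1 (0.117, 0.0548 and 0.0559). Without d2-FVFp replicate 2, 5 members rose and 1 fell, and Ndufs5 was not called (0.0862). Next in size came Cox5a (0.52 ± 0.19, adjusted p = 0.0964), Atp5a1, the alpha subunit of the ATP synthase (-0.33 ± 0.10, 0.0611), and Ndufa9, a complex I subunit of the peripheral arm (-0.31 ± 0.14, 0.158). Cox4i2 was at 1.01 and 2.09 TPM in d2-FVFn and at 3.51 and 2.82 TPM in d2-FVFp (adjusted p = 0.28), and Ndufa4l2 at 6.11 and 2.37 against 7.08 and 2.21 TPM (adjusted p = 0.945). These 2 genes were low in this line with or without Foxa2.

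**Figure D5:**
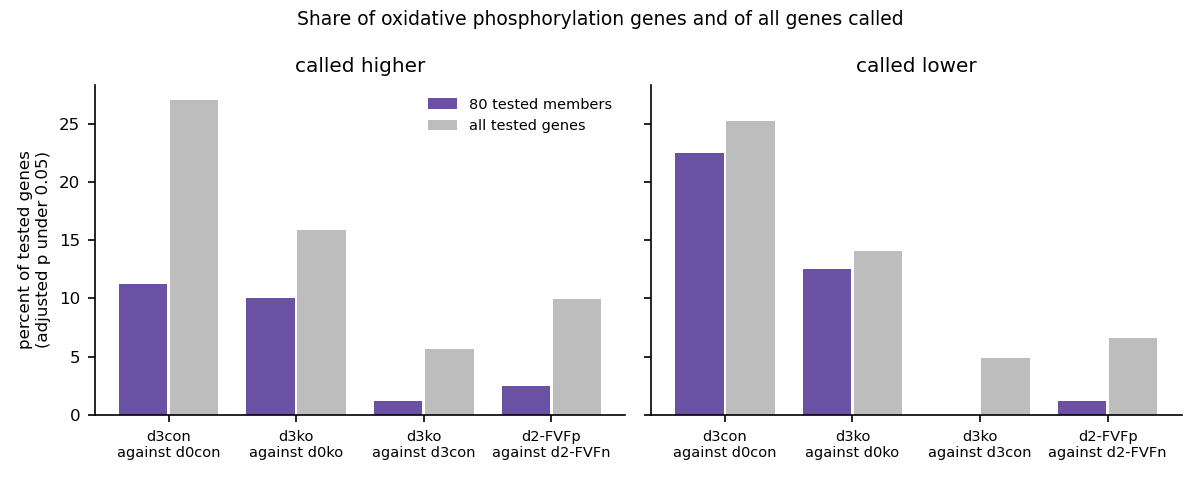
Share of the 80 tested members and of all tested genes (vertical axis, percent, from 0) called higher or lower at an adjusted p under 0.05 in 4 comparisons. In the fits plotted the members' share was below that of all genes in each comparison and direction, for example 11.2% against 27% for rises in d3con, but not under every alternative: it was 28.8% against 27.6% with DESeq2 for falls in d3con, and 20% against 17.7% on the TPM scale for rises in d3ko.

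Replicates agreed more closely in the members than in other genes, which are less abundant. The median SD of log2(TPM + 1) within a group was 0.0438 and 0.0448 in d0con and d0ko, 0.129 in d3con and 0.187 in d3ko, 0.0693 in d2-FVFn and 0.0783 in d2-FVFp. For all tested genes it was 0.0877, 0.0897, 0.224, 0.308, 0.109 and 0.149 in the same order. Members of chromosome 8 were looked at separately, because a shift across that chromosome was already known in 1 library. They were Cox4i1, Ndufa13 and Ndufb7, of which Ndufa13 and Ndufb7 are complex I accessory subunits. In d3ko replicate 2 they differed from the mean of the other d3ko replicates by -0.63, -0.40 and -0.07 on the log2(TPM + 1) scale, with a median of -0.40, while the median of the other 77 members was 0.09 and that of all genes 0.02. In d3ko replicate 1 the same 3 genes differed by 0.44 each. These values enter every d3ko mean of Cox4i1, which was at 2047, 1247 and 1824 TPM in replicates 1, 2 and 3. Without d3ko replicate 2 the log2 fold change of Cox4i1 in d3ko against d0ko was -0.50 ± 0.14 (SE, adjusted p = 0.024).

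Related genes of the pathway were described from lists. Outside the symbol rule, 5 carriers and subunits were tested. Cyc1, cytochrome c1 of complex III, fell by 0.79 on the log2 scale in d3con (SE 0.16, adjusted p = 0.00406), from 500 and 496 TPM to 307, 356 and 337 TPM, and had -0.26 in d3ko (adjusted p = 0.264). Atpif1, the inhibitor of the ATP synthase, rose by 0.45 in d3con (SE 0.17, adjusted p = 0.0487). Ndufab1, Cycs and Usmg5 were not called in any comparison. Of 42 tested assembly factors, 5 rose and 11 fell in d3con, 3 rose and 5 fell in d3ko, and 3 fell with doxycycline. Of 16 genes of the tricarboxylic acid cycle and pyruvate dehydrogenase, 4 fell in d3con. The falls in d3con came to 26.2% and 25% of these lists, near the 25.2% of all genes, and the falls of assembly factors with doxycycline to 7.1%, near the 6.57% of all genes. Of 14 tested regulators of mitochondrial biogenesis, 2 rose and 6 fell (42.9%) in d3con. Of 77 tested genes of the mitochondrial ribosome, 43 fell and 1 rose in d3con (median log2 fold change -0.44), and 31 fell and 2 rose in d3ko (median -0.38). These falls were 55.8% and 40.3% of the list, against 25.2% and 14.1% of all genes. On the TPM scale 32 were called lower and 6 higher in d3con, and 20 lower and 4 higher in d3ko.

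Several of the regulators of mitochondrial biogenesis and mitochondrial DNA changed over the days. Nrf1, a nuclear respiratory factor whose sites are known in many respiratory gene promoters, was at 71.7 and 66.7 TPM in d0con and at 35.8, 43.7 and 47.5 TPM in d3con (a fall of 0.95, SE 0.15, adjusted p = 0.00104), and fell by 0.60 in d3ko (SE 0.15, adjusted p = 0.0167). Gabpa, the other classical respiratory factor, fell by 0.66 in d3con (SE 0.14, adjusted p = 0.00511) and had -0.40 in d3ko (adjusted p = 0.06). Tfam, which packages mitochondrial DNA and takes part in its transcription, fell by 0.80 in d3con (SE 0.12, adjusted p = 0.000911) and by 0.59 in d3ko (SE 0.12, adjusted p = 0.00783). Yy1 had log2 fold changes of 0.01 and -0.21 and was not called. Ppargc1a was at or near 0 TPM in every library, with a maximum of 0.54, and Ppargc1b rose by 0.92 in d3con (SE 0.33, adjusted p = 0.0424) and by 1.96 in d3ko (SE 0.35, adjusted p = 0.00454).

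RefSeq promoters of build GRCm38.p6, from 250 bases before to 50 after each start site, were searched on both strands for 4 words. Promoters were found for 69 of the 84 members and for 27025 genes in all. The NRF1 core CGCATGCG occurred in 9 members (13.0%, against 2.07% of all genes), the YY1 word AAGATGGCG in 8 (11.6%, against 1.64%), the ETS word CCGGAAGTG in 2 (2.9%, against 2.25%) and the forkhead word TGTTTAC in 2 (2.9%, against 4.05%). Members' promoters had a median GC content of 57.3%, against 52.8% for all. The stretches below show the word in capitals in a selection of the members that hold it, so that each word can be seen in its setting, read 5′ to 3′ along the gene's strand, with up to 10 bases on either side. The NRF1 core reads the same on both strands, and the forkhead and YY1 stretches of Atp5sl share flanking bases while the words themselves do not overlap. The first 5 carry the NRF1 core.
Uqcrc1 (chr9:108936669-108936696, plus strand): ctccgctctgCGCATGCGcagcgcggct
Ndufa11 (chr17:56717693-56717720, plus strand): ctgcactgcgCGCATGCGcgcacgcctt
Atp5l (chr9:44920966-44920992, minus strand): aaccaataaCGCATGCGcatttccccc
Atp5g2 (chr15:102671071-102671098, minus strand): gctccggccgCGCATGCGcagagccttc
Uqcr11 (chr10:80406809-80406836, minus strand): atcgccttcaCGCATGCGctatacgtct
The next 3 carry the YY1 word.
Atp5j2 (chr5:145191500-145191528, minus strand): ccaggacttcAAGATGGCGtcactcggtg
Atp5sl (chr7:25619430-25619458, plus strand): gttacctggcAAGATGGCGgcgcccagag
Ndufs7 (chr10:80249463-80249491, plus strand): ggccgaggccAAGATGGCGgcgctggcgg
The last 3 carry the ETS word on the opposite strand, the forkhead word, and the forkhead word on the opposite strand.
Uqcrh (chr4:116075064-116075092, minus strand): gagtatgccgCACTTCCGGccaggtcgcc
Atp5sl (chr7:25619413-25619439, plus strand): ctgcctcttcTGTTTACgttacctggc
Cox7a2 (chr9:79760049-79760075, minus strand): ccttcagactGTAAACAatggctcaaa

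Among all 9 members with the NRF1 core, 3 were called lower and none higher in d3con (Uqcrc1, Ndufa11 and Atp5l), and 8 had a log2 fold change below 0 on counts but 4 on the TPM scale. Among all 8 with the YY1 word, 2 were called lower and none higher (Atp5j2 and Atp5sl), and 5 were below 0 on counts and 4 on TPM. Of all tested genes 25.2% were called lower and 27% higher in d3con. With few members to a word, nothing is read from these counts. The NRF1 and YY1 stretches above include every called member and leave out uncalled ones, so they are not a representative sample. Neither gene with the forkhead word was called with doxycycline, with log2 fold changes of -0.23 for Atp5sl (adjusted p = 0.297) and -0.05 for Cox7a2 (0.784). A match of letters is a description and not a bound site.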

How the data were processed

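RNA was measured in 14 mouse libraries made with a low-input full-length cDNA kit. The authors aligned reads to mm10 with STAR and quantified each library with RSEM (versions not given in the sources used here). The authors deposited expected counts, RSEM's estimate of how many reads each gene drew, unnormalized. The deposited TPM values are the authors' RSEM levels, scaled for effective length and library total. Effective lengths were used to read off the read length. Groups and replicate numbers came from the sample titles. Where nothing shows separate cultures, p-values measure only the spread between libraries, which may be technical. Precision is limited by 2 or 3 libraries a group. Libraries held 14142788 to 27278237 counts, but single members could have few, such as Cox4i2 with 10 and 21 in d0con. Intervals for counting error were not computed.

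Expected counts were rounded. Genes with at least 1 CPM in at least 2 libraries of a fit were kept: 13899 when the 10 libraries of days 0 and 3 were fitted jointly, and 12943 when the 4 libraries from doxycycline-treated cells were fitted. After TMM scaling the test was that of edgeR 4.0.16 (quasi-likelihood F test, R 4.3.3) over all genes, with Benjamini-Hochberg adjustment, and called at an adjusted p under 0.05. Every adjusted p in the text is from this test unless limma or DESeq2 is named or the TPM scale is given. SE is the size of the log2 fold change divided by the square root of F. Values on the TPM scale are limma 3.58.1 on log2(TPM + 1), an alternative added after seeing the data, and such a fold change understates changes of low genes. The other alternatives were DESeq2 1.42.0, median-of-ratios scaling, no filter, a replicate block, an effective length offset, only the 2 groups compared, each library left out, and both 75-base libraries left out. The main edgeR fit was tested on simulated counts for d3con against d0con, the interaction and d2-FVFp against d2-FVFn. The alternatives and the other steps were not tested on simulated data.

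Same-numbered day 0 and day 3 libraries of a genotype come from the same clone by the deposited names. The replicate block is set by the replicate number, which both genotypes share although their clones differ. Replicate 3 has no day 0 library and is set apart from the other day 3 library of its clone. The block is therefore not a pairing by clone within a genotype. Deviations of same-numbered day 0 and day 3 libraries from the group means correlated by -0.03 to 0.06 over genes. The members and all lists were chosen with earlier results of these data known. Genes named by rule are Foxa2, members called past 2-fold, the 3 largest rises and falls per comparison among members with a mean of at least 5 TPM in the higher group, the 4 Sdh genes, the paired isoforms, the 2 most abundant members of each complex and the members on chromosome 8. Other genes were named after their values were seen. All 84 members matched RefSeq, 3 of them through a synonym.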

Additional observations from a re-analysis of the deposited data

How the results depend on the processing

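In d3con against d0con, 10 members were called lower with no filter on low counts, the members' median log2 fold change was -0.10 with the replicate block, and on the TPM scale 18 members were called higher and 6 lower with a median of 0.03. With 1 library left out, 3 to 7 members were called higher, 3 to 16 lower and 4 to 7 past 2-fold, with medians from -0.21 to -0.12. In d3ko against d0ko, 5 members were called lower with no filter, 5 higher and 2 lower when only the 2 groups were fitted, and 16 higher and 3 lower on the TPM scale (median 0.08). With 1 library left out, 0 to 8 were called higher, 1 to 16 lower and 0 to 5 past 2-fold, with medians from -0.13 to -0.01. In d3ko against d3con, DESeq2 called 1 member lower. The replicate block, the fit of the 2 groups and the fit without the 75-base libraries each called 0 higher and 0 past 2-fold. Of all tested genes, these fits called 3.46%, 0.0518% and 0% higher, against 5.66% in the main fit. With 1 library left out, 0 to 4 were called higher, 0 to 5 lower and 0 to 1 past 2-fold. In d0ko against d0con the median was -0.10 to -0.01 with 1 library left out and 0.00 on the TPM scale. In d2-FVFp against d2-FVFn, 2 members were called lower with no filter, 9 higher and 3 lower with the replicate block, and 4 higher on the TPM scale (median 0.09). With 1 library left out, 0 to 5 were called higher, 0 to 1 lower and 0 to 1 past 2-fold, with medians from 0.02 to 0.08. For the interaction, 0 to 1 members were called in each direction with 1 library left out, with medians from 0.02 to 0.15. Shares of all tested genes called shifted as well. With no filter, 17% were lower in d3con against d0con and 8.47% in d3ko against d0ko. When only the 2 groups were fitted, 7.39% were higher and 6.05% lower in d3ko against d0ko. Without 1 of the d3con libraries, 22.9% to 25.3% were higher and 20.7% to 24.1% lower in d3con against d0con. A shift in the count of called members is therefore not particular to them. The cause of these shifts was not tested.

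The replicate numbers match a clone only between the days within a genotype. Elsewhere libraries share only a number: deviations of same-numbered libraries correlated by 0.53, 0.29 and -0.01 in d3ko against d3con, by 0.11 at day 0 and by 0.24 with doxycycline. Of 49 calls of single members, DESeq2 kept 49, median-of-ratios scaling 47, the effective length offset 44, the replicate block 38, no filter 33 and the TPM scale 30, and no direction reversed. Groups of 2 limit every comparison that holds one.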
